A study of Homo sapiens with 18 samples.

Results

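HepG2 cells labelled as APOA4 knockout (APOA4-KO) were compared before hypoxia and after 48 h at 1% oxygen, across all genes. HepG2 is a human hepatoblastoma line that is widely used as a stand-in for hepatocytes, and APOA4 is an apolipoprotein of triglyceride-rich particles and of high-density lipoprotein. The members were the 6 libraries that the labels give as APOA4 knockout at 0 h (3 libraries) and as APOA4 knockout after 48 h of hypoxia (3 libraries), out of 18 poly(A) RNA-seq libraries in the series. The other 12 libraries were APOA4-KO cells after 24 h of hypoxia and unedited HepG2 cells at 0, 24 and 48 h, with 3 libraries in each group. According to the study's methods, APOA4-KO was made in HepG2 with Cas9 and a pair of guides against the exons of APOA4, followed by the picking of single colonies, so that this line and the unedited cells differ in clonal history as well as in APOA4. No APOA4-KO cells kept in normal oxygen for 48 h were analysed here, and the effect of low oxygen and that of 48 h in culture cannot be told apart. The labels do not say whether the 3 libraries of a group came from separate cultures, so the p-values measure the spread between these libraries, which may be technical.

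Hypoxia acts on cells mainly through the hypoxia-inducible factors (HIF), in which an oxygen-labile α subunit pairs with ARNT. Prolyl hydroxylases of the EGLN family mark the α subunit for destruction as long as oxygen is present. When oxygen falls, the α subunit is kept, and genes for glucose uptake, glycolysis, blood vessel growth and the saving of mitochondrial oxygen are transcribed. In hepatocytes the same response meets glucose output, lipid storage and the making of plasma proteins.

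Each library held 76481820 to 91604947 counts, and the 6 libraries compared here held 76778865 to 86840028. Levels are given as CPM, the count of a gene relative to the total of its library, scaled by the trimmed mean of M values (TMM), and differences as log2 fold changes with their standard error (SE). A gene was called changed when its log2 fold change was at least 1 in either direction and its adjusted p was under 0.05 (edgeR quasi-likelihood test, Benjamini-Hochberg over the 19743 genes tested of 61806 in the table). Liver markers were present in all 6 libraries, with ALB at 17920 to 19260 CPM and AFP at 949 to 1037 CPM, and 0 of 9 liver markers passed the call. Of the markers of other cell types, COL1A1 (stromal, log2 fold change −1.03 ± 0.32) and KRT7 (biliary, −1.83 ± 0.42) were lower at 48 h, and both belong to a set of 229 genes that stood high in 1 library at 24 h. CD68 was higher (1.27 ± 0.06, although 85.8% of its exon bases lie in other genes), and 0 of 6 endothelial markers passed, although all 6 had a negative log2 fold change (median −1.46) and up to 3 were called lower in the alternative fits. The summed level of the endothelial list was 14.7 to 17.4 CPM at 0 h and 8.86 to 11.4 CPM at 48 h, that of the stromal list 127 to 129 and 119 to 121 CPM, and that of the biliary list 674 to 703 and 977 to 999 CPM. The immune list summed to 1577 to 1618 CPM at 0 h and 2780 to 2850 CPM at 48 h, nearly all of it from LYZ, which encodes lysozyme (1538 to 1577 and 2698 to 2771 CPM), while CD3E, CD163 and TYROBP were each under 0.3 CPM on average in both groups. The part of these markers in the results was not tested. In bulk RNA, fewer cells of a kind and less RNA per cell cannot be told apart.

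APOA4 itself was counted in every library labelled APOA4-KO. There it was at 8.35, 7.81 and 6.99 CPM at 0 h and at 7.65, 8.54 and 8.44 CPM after 48 h. The ranges overlapped, and the log2 fold change was 0.09 ± 0.08 (adjusted p = 0.39). Unedited HepG2 went from 8.46 to 9.67 CPM at 0 h to 18.9 to 21.7 CPM at 48 h, a log2 fold change of 1.16, and the difference between the lines in the 48 h change was −1.07 (adjusted p = 4e-07). The gene spans chromosome 11 from 116820700 to 116823306 (GRCh38, GENCODE release 29), and 43.1% of its exon bases lie in other annotated genes. At 0 h the libraries labelled APOA4-KO lay below those of HepG2, by means of 7.71 and 9.03 CPM, and a loss of the transcript was not seen. The study's methods report PCR and Sanger sequencing of the edited clones, and the choice of clones mutated in both alleles. Gene counts do not show which exons were read, and whether the edit is present in these libraries was not tested here. APOA4-KO therefore stands here for the libraries so labelled, in every comparison of the lines too.

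A set of 229 genes set 1 library apart and touched the list of falling genes. In APOA4-KO at 24 h, replicate 1 exceeded both other replicates at least 2-fold in these genes, whereas the same rule gave 52 to 122 genes in each of the other 17 libraries. Their summed level was 769, 808 and 865 CPM in the APOA4-KO libraries at 0 h, 1035 CPM in replicate 1 at 24 h, 271 and 284 CPM in the other 24 h replicates and 329, 308 and 310 CPM at 48 h. Unedited HepG2 held 273 to 382 CPM of them at any time. Thus the genes stood at a high level in all APOA4-KO libraries at 0 h and in 1 of the 3 at 24 h, and at the level of unedited HepG2 in every APOA4-KO library at 48 h. Mesenchymal and matrix genes were among them, such as VIM, which encodes the filament protein vimentin (26.7 to 28.0 CPM at 0 h, 26.6, 8.21 and 8.90 CPM at 24 h, 6.45 to 12.8 CPM at 48 h), and ITGA5, a fibronectin receptor subunit (25.6 to 26.3 CPM at 0 h, 29.7, 4.01 and 5.73 CPM at 24 h, 3.95 to 6.96 CPM at 48 h). Of the 229, 131 were lower at 48 h, 1 was higher and 97 did not pass, with a median log2 fold change of −1.67. What set replicate 1 apart was not tested, and falling genes are given below with and without this set.

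**Figure D1:**
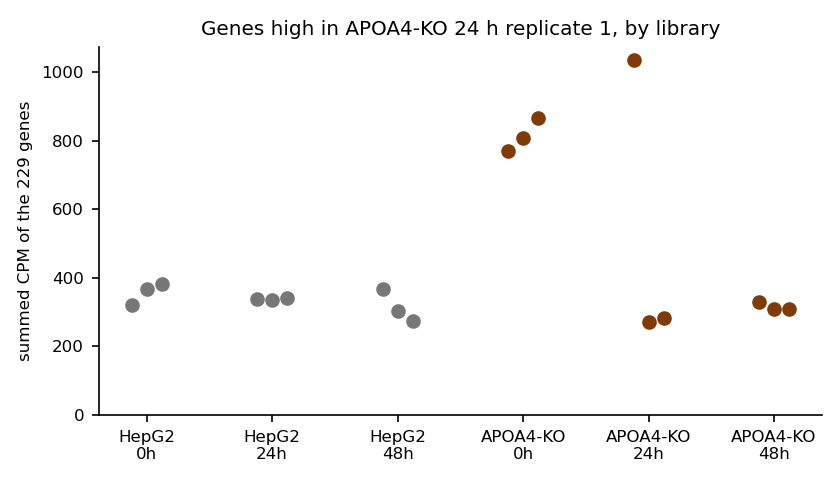
Summed CPM (y axis, from 0) of the 229 genes at least 2-fold higher in APOA4-KO 24 h replicate 1 than in both other 24 h replicates, with 1 point per library in each of the 6 groups. The 3 APOA4-KO libraries at 0 h (769 to 865 CPM) and 1 library at 24 h (1035 CPM) lie above all others, which lie between 271 and 382 CPM.

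After 48 h of hypoxia, 1055 genes were higher in APOA4-KO than at 0 h, 5.34% of those tested, and 1352 were lower, 6.85%. These shares are the background for the counts of every gene list below. Without the 229 genes above, 1221 lower and 1054 higher genes were left. At 2 or more on the log2 scale, 301 genes were higher and 392 were lower. In 54 of the higher genes every 0 h library held at most 3 counts, and in 136 of the lower genes every 48 h library did, so that their fold changes have no firm size. The median over all tested genes was −0.07. Scaling by library size alone moved that median to −0.23, and the calls to 791 higher and 1813 lower genes (30.4% of the calls higher, against 43.8% with TMM).

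**Figure D2:**
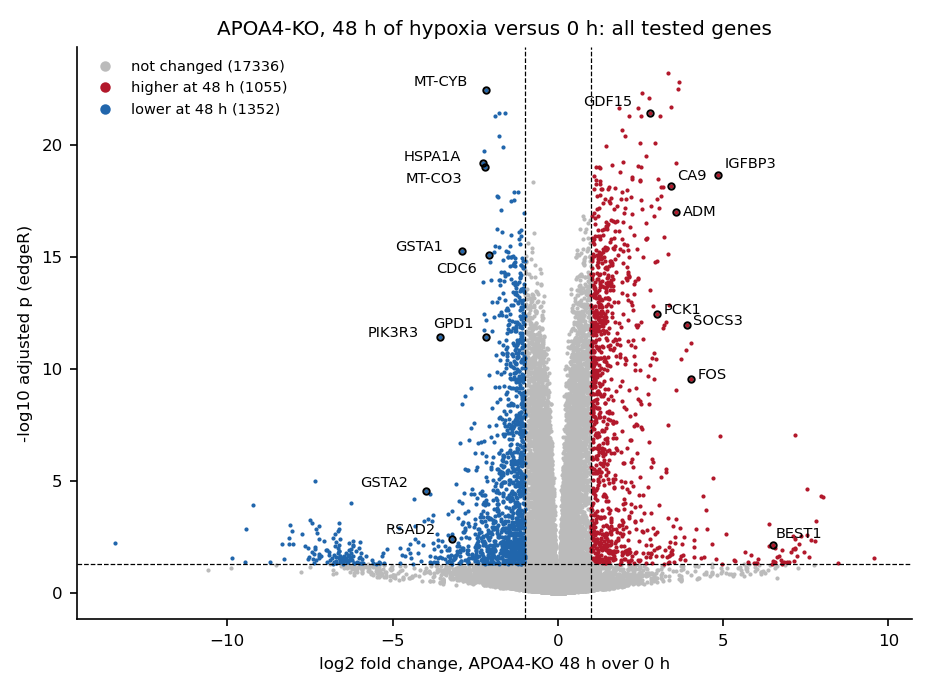
Log2 fold change of APOA4-KO 48 h over 0 h (x axis) against −log10 of the adjusted p (y axis) for the 19743 tested genes, with 1055 higher genes in red, 1352 lower genes in blue and the limits as dashed lines. IGFBP3 and CA9 stand at the upper right, MT-CYB and HSPA1A at the upper left, and BEST1 lies near the lower right at an adjusted p of 0.007.

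The largest increase that did not rest on 1 library was that of IGFBP3, the main carrier of insulin-like growth factors in plasma (chromosome 7, 45912245 to 45921874). Its level was 7.47, 6.18 and 6.62 CPM at 0 h and 195, 196 and 193 CPM at 48 h, a log2 fold change of 4.85 ± 0.08 (adjusted p = 2.1e-19). It was at 43.1 to 45.9 CPM at 24 h, so that the 3 times did not overlap. In unedited HepG2 at 48 h it was at 5.99 to 6.61 CPM.

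The other genes with the largest increases were mainly signalling genes. FOS, a subunit of the transcription factor AP-1, was at 1.04 to 1.43 CPM at 0 h and 19.0 to 20.7 CPM at 48 h (4.04 ± 0.27), and SOCS3, the feedback inhibitor of cytokine signalling, at 1.60 to 1.82 and 23.8 to 26.5 CPM (3.90 ± 0.18). BIRC7, an inhibitor of apoptosis, rose by 4.02 ± 0.21 and PTAFR, the receptor for platelet-activating factor, by 3.89 ± 0.21. IER3, an early response gene with 26.5% of its exon bases in other genes, rose by 3.64 ± 0.03, the vasodilator peptide gene ADM by 3.58 ± 0.07 and the prolyl hydroxylase gene EGLN3 by 3.57 ± 0.05. Adjusted p was at most 2.8e-10 for each of these 7 genes (edgeR). The rule that named them required a call and no overlap between the groups, so that separation adds no support. BEST1, a chloride channel, had the largest value of the rule at 6.50 ± 1.87, but its counts at 48 h were 117, 138 and 10233. Without replicate 3 its log2 fold change was 1.68 (adjusted p = 0.37), so that 1 library made the call.

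The largest decreases by the same rule came in large part from the set of 229 genes, which held 7 of the 10. Among these were the interferon-induced genes RSAD2 (8.67 to 11.2 CPM at 0 h, 1.65, 1.35 and 0.25 CPM at 48 h, −3.21 ± 0.85), IFI27 (−3.09 ± 0.46), OAS2 (−2.82 ± 0.65) and IFI44L (−2.82 ± 0.67). The others were FLNC, an actin crosslinker (−3.06 ± 0.98), the secreted glycoprotein gene FSTL1 (−2.51 ± 0.55) and the collagen chain gene COL5A2 (−2.42 ± 0.57). By the definition of the set, each of the 7 was higher in 24 h replicate 1 than in the other 24 h replicates. Each was high at 0 h too. Without 48 h replicate 3 the call of FLNC was lost. ZC3H11A, with 93.6% of its exon bases in other genes, had 9.50, 22.0 and 40.5 CPM at 0 h and 3.67 to 6.53 CPM at 48 h (−2.38 ± 0.58) and is uncertain.

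Outside that set, the detoxifying enzyme gene GSTA1 fell from 37.7 to 39.6 CPM to 4.75 to 5.36 CPM (−2.91 ± 0.08, adjusted p = 5.3e-16), and FAM111B, a gene of dividing cells that encodes a protease, from 7.27 to 7.91 CPM to 1.03 to 1.56 CPM (−2.64 ± 0.19). HSPA1A, an inducible heat shock protein whose near-identical copy HSPA1B shares reads with it, was at 266 to 280 CPM at 0 h and 54.6 to 58.1 CPM at 48 h (−2.28 ± 0.03). GPD1, the cytosolic enzyme that makes glycerol 3-phosphate, was at 10.1 to 11 and 2.13 to 2.53 CPM (−2.19 ± 0.11). HSPA1A and GPD1 were picked after their values were seen.

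HIF targets made up the list with the largest share of higher genes. Of 30 established targets, all of them tested, 26 were higher, 0 were lower and 4 did not pass, with a median log2 fold change of 1.82 against −0.07 over all tested genes. ADM and EGLN3, given above, were among them. CA9, the carbonic anhydrase that serves as a hypoxia marker, was at 37.9 to 39.2 CPM at 0 h, 300 to 306 CPM at 24 h and 404 to 416 CPM at 48 h (3.42 ± 0.06). Of the exon bases of CA9, 38.5% lie in other genes. VEGFA, which drives the growth of blood vessels, rose by 2.68 and the transcriptional repressor gene BHLHE40 by 2.95. The members that did not pass were CA12 (0.27), HIGD1A (−0.11), P4HA2 (0.86) and EPO (0.60). EPO, the hormone of red cell formation, was at 8.72, 8.33 and 8.70 CPM at 0 h and 13.6, 13.6 and 12 CPM at 48 h (adjusted p = 2.9e-05). The 48 h libraries lay above those at 0 h, although the change stayed under the fold limit.

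The start regions of the higher HIF targets show where a HIF core motif lies in sequence. HIF dimers bind a short core that reads ACGTG or GCGTG, and both were searched on either strand from 250 bases before to 50 bases after each gene's start (RefSeq, GRCh38.p14). The core was found in 19 of 24 windows of the HIF targets (79.2%), in 60.8% of the 12825 windows matched to tested genes and in 48.4% of all 27305 windows. Other lists held it in 16 of 23 windows (glycolysis, 69.6%), 25 of 37 (DNA replication, 67.6%), 21 of 31 (mitosis, 67.7%) and 13 of 20 (immediate early genes, 65%). The windows of ADM (chr11:10304823-10305122, plus strand), CA9 (chr9:35673678-35673977, plus strand) and ANKRD37 (chr4:185396591-185396890, plus strand) are shown because these had the largest log2 fold changes among the targets matched to a window with a core, and capitals mark the core or its reverse complement:
ADM: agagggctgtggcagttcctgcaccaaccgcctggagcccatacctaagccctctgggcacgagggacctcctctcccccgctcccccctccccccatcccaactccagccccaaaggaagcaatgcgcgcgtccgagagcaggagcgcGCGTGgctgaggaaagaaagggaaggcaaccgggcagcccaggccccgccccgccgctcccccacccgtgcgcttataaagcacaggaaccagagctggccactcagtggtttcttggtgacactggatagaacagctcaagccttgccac
CA9: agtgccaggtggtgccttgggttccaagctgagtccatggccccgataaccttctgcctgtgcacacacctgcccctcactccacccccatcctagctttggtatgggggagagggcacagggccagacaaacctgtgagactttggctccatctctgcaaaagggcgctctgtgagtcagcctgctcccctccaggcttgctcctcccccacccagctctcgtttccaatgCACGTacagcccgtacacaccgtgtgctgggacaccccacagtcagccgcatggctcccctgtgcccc
ANKRD37: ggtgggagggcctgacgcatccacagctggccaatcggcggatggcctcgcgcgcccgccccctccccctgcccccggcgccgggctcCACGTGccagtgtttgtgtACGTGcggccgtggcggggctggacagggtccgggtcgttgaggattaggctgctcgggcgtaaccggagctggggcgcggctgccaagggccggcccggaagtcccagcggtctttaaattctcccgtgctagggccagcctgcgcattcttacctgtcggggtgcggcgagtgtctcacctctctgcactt
The core begins 101 bases before the start in ADM and 18 bases before it in CA9, where it reads as its reverse complement. In ANKRD37, which encodes an ankyrin repeat protein and rose by 3.26, overlapping cores on both strands begin 162 and 161 bases before the start and another lies at 143 bases before it. A match describes the letters only and not binding.

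Of 12 members of the HIF system itself, 5 were higher and 0 were lower. EPAS1, which encodes the α subunit HIF-2α, rose from 269 to 277 CPM to 732 to 751 CPM (1.45 ± 0.02), and HIF3A, a further α subunit with inhibitory forms, from 0.20 to 0.45 CPM to 1.28 to 1.61 CPM (2.34 ± 0.50). HIF1A, whose product is controlled mainly at the level of the protein, was at 82.6, 82.5 and 93.8 CPM and at 124, 128 and 128 CPM, a log2 fold change of 0.55 ± 0.04 that did not pass the fold limit. Of the oxygen sensors, EGLN1 (1.19) and EGLN3 were higher, while EGLN2 had −0.55. EPAS1 was named after its value was seen.

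Of 25 glycolysis genes, 12 were higher and 0 were lower, with a median of 0.85. PFKFB3, which makes the activator of phosphofructokinase, was at 22.9 to 25.8 CPM at 0 h and 195 to 203 CPM at 48 h (3.03 ± 0.05). The hexokinase gene HK2 went from 132 to 135 CPM to 897 to 922 CPM (2.76 ± 0.02), and the glucose transporter gene SLC2A3 from 345 to 366 CPM to 2023 to 2067 CPM (2.53 ± 0.02). Members that did not pass reached from −0.33 (PFKM) to 0.85 (GPI), and 22 of the 25 had a positive change with an adjusted p under 0.05. With library size alone, 9 of the 25 were higher.

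Of 15 gluconeogenesis genes, 4 were higher and 1 was lower, with a median of 0.14. PCK1, which commits carbon to new glucose (chromosome 20, 57561080 to 57568112), was at 15.9, 19.9 and 16.3 CPM at 0 h, at 66.0 to 70.4 CPM at 24 h and at 133, 139 and 143 CPM at 48 h (2.99 ± 0.13, adjusted p = 3.4e-13). G6PC1, which releases free glucose, went from 84.7 to 91.8 CPM to 245 to 260 CPM (1.52 ± 0.06), and FOXO1, a transcription factor that insulin holds out of the nucleus, from 20.4 to 22.1 CPM to 63.8 to 65.3 CPM (1.61 ± 0.06). FBP1, the bisphosphatase between them in the pathway, was lower (−1.67 ± 0.45) at about 1 CPM. In unedited HepG2, PCK1 was at 2.34 to 2.96 CPM at 0 h and 0.55 to 1.26 CPM at 48 h, and G6PC1 at 10.1 to 12.6 and 6.56 to 7.65 CPM. Thus both genes rose in APOA4-KO from a level that was above unedited HepG2 at 0 h already.

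Of 13 genes of insulin and insulin-like growth factor signalling, 4 were higher and 1 was lower (median 0.76). Beside IGFBP3, IGFBP1 rose from 1001 to 1163 CPM to 4528 to 5275 CPM (2.15 ± 0.07) and the growth factor gene IGF2, with 75.0% of its exon bases in other genes, by 1.25 ± 0.02. IGFBP5 was lower (−2.09 ± 0.56), but it belongs to the 229 genes.

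AP-1 and other immediate early genes, which normally answer a stimulus within minutes, were raised at 48 h. Of 26 listed, 17 were higher and 0 were lower, with a median of 2.20. Next to FOS and IER3, the phosphatase gene DUSP1 was at 15.0 to 18.8 CPM at 0 h, 43.1 to 50.2 CPM at 24 h and 154 to 169 CPM at 48 h (3.22 ± 0.08), which was noticed after its values were seen. EGR2 had 0 counts in all 3 libraries at 0 h and 16, 35 and 35 counts at 48 h. Against a floor of 3 counts over the 0 h group that is 33.3-fold. A count need not be 1 read pair, so this value is not a firm lower bound. Members that did not pass included KLF2 (−0.58), KLF4 (−0.01), IER2 (0.08) and NR4A3 (1.16, adjusted p = 0.25). The median of the list was 0.81 at 24 h and −0.18 in unedited HepG2 at 48 h, and FOS itself was at 0.87 to 2.1 CPM in the latter.

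Interleukin-6 and STAT signalling genes had 5 of 19 members higher and 0 lower (median 0.62). PIM1, a kinase gene under STAT control, went from 77.3 to 78.5 CPM to 653 to 662 CPM (3.08 ± 0.03), and HAMP, which encodes the iron hormone hepcidin, from 2.17 to 2.94 CPM to 17.8 to 19.7 CPM (2.85 ± 0.16). SOCS3 led this list too. In HepG2 at 48 h PIM1 was at 41.8 to 43.6 CPM and HAMP at 6.98 to 8.77 CPM.

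DNA replication genes made up the largest group of lower genes. Of 42 listed, 32 were lower and 0 were higher, all 42 had a negative log2 fold change, and the median was −1.19. CDC6, which loads the replicative helicase (chromosome 17, 40287633 to 40304657), was at 40.1, 40.4 and 36.1 CPM at 0 h, at 27.2 to 27.9 CPM at 24 h and at 10.04, 8.66 and 9 CPM at 48 h (−2.07 ± 0.06, adjusted p = 8.1e-16). E2F2, an activator of S-phase genes, went from 15.7 to 17.0 CPM to 3.12 to 3.82 CPM (−2.24 ± 0.10), POLE2, a subunit of DNA polymerase ε, from 3.35 to 4.59 CPM to 0.46 to 1.35 CPM (−2.17 ± 0.27), and the cyclin gene CCNE2 by −2.44 ± 0.32 at about 1 CPM. The members that did not pass ranged from −0.96 (MCM7) to −0.19 (PRIM1), with CDT1 at −0.24. None of the 42 belonged to the 229 genes. In unedited HepG2 the median of the list was 0.11, and CDC6 was at 35.1 to 38.0 CPM at 0 h and at 48.9 to 50.4 CPM at 48 h.

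E2F factors drive many of these genes, and their site was looked for as TTTGGCGC or TTTCCCGC on either strand in the same start windows. It was found in 18 of 37 windows of the DNA replication list (48.6%), in 2 of 31 windows of the mitosis list (6.45%), in 3.37% of the windows of tested genes and in 2.31% of all windows. The window of E2F2 (chr1:23531184-23531483, minus strand) is shown because E2F2 was the lower gene of the list with the largest change that holds a site, marked in capitals 42 bases before the start:
E2F2: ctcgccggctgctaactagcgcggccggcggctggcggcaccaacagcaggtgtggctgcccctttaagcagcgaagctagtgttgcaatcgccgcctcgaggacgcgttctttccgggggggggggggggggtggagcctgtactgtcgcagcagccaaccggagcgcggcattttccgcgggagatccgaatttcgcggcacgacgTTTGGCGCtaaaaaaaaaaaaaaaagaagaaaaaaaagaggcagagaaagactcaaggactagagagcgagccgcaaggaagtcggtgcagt
The palindromic cyclic AMP element TGACGTCA was found in 2 of 37 replication windows (5.41%), 2 of 20 windows of the immediate early list (10%) and 3.03% of the windows of tested genes. These matches too describe letters and not binding. Whether E2F factors had a part in the fall was not tested.

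Of 36 mitosis genes, 0 passed the call in either direction, although 29 were lower at an adjusted p under 0.05 without the fold limit, and the median was −0.40. ESPL1, which encodes separase, had the largest decrease at −0.89 ± 0.06, the phosphatase gene CDC25C had −0.88 ± 0.09, MKI67, the proliferation marker, −0.62 ± 0.04 and the topoisomerase gene TOP2A −0.13 ± 0.03. Among 15 G1 cyclins and inhibitors of cyclin-dependent kinases, CCND3 (−1.65 ± 0.09) and CDKN2C (−1.59 ± 0.14) were lower and 0 were higher, and the inhibitors CDKN1A and CDKN1B had −0.07 and 0.79. The share of lower genes in this list was 13.3%, against 6.85% of all tested genes. PIK3R3, a regulatory subunit of phosphoinositide 3-kinase, and E2F7, an E2F repressor, were lower outside these lists (−3.57 ± 0.18 and −1.89 ± 0.11).

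The protein-coding genes of the mitochondrial genome fell unevenly. Of 13, 8 were lower and 0 were higher, with a median of −1.58, and the share of all counts that came from the mitochondrial genome was 9.01% to 9.31% at 0 h and 5.17% to 5.19% at 48 h. MT-CO3, a subunit of cytochrome c oxidase, was at 8743, 9332 and 9238 CPM at 0 h, at 2386 to 2477 CPM at 24 h and at 2056, 1997 and 1873 CPM at 48 h (−2.2 ± 0.03). MT-CYB, the cytochrome b of complex III, had −2.16 ± 0.02 and MT-ND3 of complex I −1.79 ± 0.07. MT-CO1, another subunit of cytochrome c oxidase, had only −0.17 ± 0.02 (20910 to 21790 and 18660 to 19500 CPM), and MT-ND4 −0.23 ± 0.02. These transcripts come from shared precursors, and the libraries were made from poly(A) RNA. How far capture by the tail has a part in the unevenness was not tested.

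Of 79 nuclear genes of the respiratory chain, 2 were higher (2.53%) and 1 was lower (1.27%), with a median of −0.19. Both shares lay below those over all tested genes, 5.34% and 6.85%. NDUFA4L2, a hypoxia-induced paralogue of a respiratory subunit, was higher (3.27 ± 0.43) at 1.40 to 2.53 CPM, COX4I2, the hypoxic isoform of a cytochrome c oxidase subunit, was higher (3.85 ± 1.42) at under 0.5 CPM, and NDUFB2 was lower (−1.23 ± 0.11). The call of COX4I2 was lost without any 1 of 5 of the 6 libraries. Among 26 factors of mitochondrial RNA, MTERF2 was lower (−1.11 ± 0.16) and 0 were higher. Of 78 mitochondrial ribosomal protein genes, MRPS11 (−1.11 ± 0.08) and MRPL49 (−1.05 ± 0.04) were lower and 0 were higher (median −0.22). Lower genes made up 3.85% of the mitochondrial RNA factors and 2.56% of these ribosomal genes, below the 6.85% of all tested genes. Of 80 cytosolic ribosomal protein genes, 0 passed. Their median was 0.20, and 0.04 with library size alone.

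Of 21 genes of lipid droplets and lipolysis, 5 were higher and 2 were lower (median −0.04). ANGPTL4, an inhibitor of lipoprotein lipase, went from 15.3 to 17.2 CPM to 102.5 to 108.7 CPM (2.69 ± 0.07), its relative ANGPTL8 from 33.7 to 34.2 CPM to 183 to 195 CPM (2.47 ± 0.04) and HILPDA, which blocks the main triglyceride lipase, from 8.63 to 9.87 CPM to 45.0 to 49.4 CPM (2.33 ± 0.08). The droplet coat gene PLIN2, named after its values were seen, was at 245 to 256 CPM at 0 h, 1073 to 1100 CPM at 24 h and 1111 to 1132 CPM at 48 h (2.16 ± 0.02), so that nearly all of its change was in place at 24 h. PLIN1, the coat protein of fat cells, was lower (−2.71 ± 0.52) at under 2 CPM, and the lipase gene MGLL, one of the 229 genes, by −1.81 ± 0.46.

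Of 25 genes of fatty acid and triglyceride synthesis, 3 were higher and 3 were lower (median −0.30). The enzymes of the middle of the glycerolipid pathway, AGPAT2 (1.59 ± 0.06) and LPIN2 (1.47 ± 0.03), were higher, as was ACSL4 (1.07 ± 0.03), which activates fatty acids. The enzymes of its last step, DGAT1 (126 to 130 and 46.4 to 48.5 CPM, −1.41 ± 0.03) and DGAT2 (−1.19 ± 0.05), were lower together with the desaturase gene FADS2 (−1.35 ± 0.04). Of 29 genes of fatty acid oxidation and ketogenesis, CPT1A, the gate of fatty acids into mitochondria, was higher (1.28 ± 0.03), the carnitine carrier gene SLC25A20 was lower (−1.17 ± 0.08) and 27 did not pass. That was 3.45% in each direction, below the shares over all tested genes (5.34% higher and 6.85% lower). With library size alone, ACSL4 no longer passed.

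Of 24 genes of cholesterol synthesis and uptake, 1 was higher and 5 were lower, with a median of −0.57. MVK (−1.41 ± 0.04) and TM7SF2 (−1.33 ± 0.03), enzymes of the pathway, were lower, and INSIG1, which holds back its activator, had −1.40 ± 0.55 at under 2 CPM. The call of INSIG1 was lost without any 1 of 5 of the 6 libraries. SREBF2, which encodes that activator, had 0.39. Of 19 lipoprotein genes, APOA4 among them, 0 passed, and SCARB1, the receptor for high-density lipoprotein, came closest at 0.96 ± 0.02.

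Of 14 genes of the PPAR and RXR family and their cofactors, 2 were higher and 0 were lower (median 0.44). The share of higher genes was 14.3%, against 5.34% of all tested genes, and with library size alone 1 of 14 was higher. PPARG was at 11.9, 14.0 and 13.4 CPM at 0 h and at 45.3, 45.2 and 45.5 CPM at 48 h (1.79 ± 0.09), and the coactivator gene PPARGC1A at 19.96 to 22.6 and 43.7 to 46.5 CPM (1.08 ± 0.07, below the fold limit with library size alone). PPARA, the regulator of fatty acid oxidation, had 0.37 ± 0.05.

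Of 44 plasma proteins, CP, the copper-carrying ferroxidase ceruloplasmin, was higher (512 to 520 and 1179 to 1202 CPM, 1.20 ± 0.03) and 43 did not pass. The share of higher genes was 2.27%, below the 5.34% of all tested genes. Among 20 hepatocyte transcription factors, 3 were higher and 1 was lower. HNF4G (1.77 ± 0.48) and TBX3 (1.31 ± 0.04) were higher and CEBPA, with 43.4% of its exon bases in other genes, was lower (−1.18 ± 0.04), while HNF4A had 0.05. HNF4G varied between libraries at 0 h (1.8, 6.8 and 2.6 CPM) and was at 11.9 to 13.8 CPM at 48 h. It lost its call under limma on log2(FPKM + 1). Of 29 genes of drug metabolism, 1 was higher and 5 were lower (median −0.12). AHR, the receptor for aromatic hydrocarbons, rose from 40.4 to 44.5 CPM to 172 to 180 CPM (2.05 ± 0.04), and the glutathione transferase gene GSTA2 fell from 2.5 to 3.33 CPM to 0, 0.26 and 0.29 CPM (−3.98 ± 0.63). CYP1B1 was lower too (−1.47 ± 0.40). Of 17 bile acid genes, AKR1D1 (−1.53 ± 0.09), CYP8B1 (−1.35 ± 0.17) and CYP7A1, the rate-limiting enzyme of bile acid synthesis (−1.28 ± 0.28), were lower, and SLC51A, which exports bile acids, was higher (1.27 ± 0.16). Of 17 genes of iron handling, CP and HAMP were higher and 0 were lower.

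Of 26 ATF4 targets, 5 were higher and 1 was lower, with a median of −0.08. GDF15, a circulating stress hormone, was at 241, 240 and 224 CPM at 0 h, at 388 to 405 CPM at 24 h and at 1581, 1657 and 1596 CPM at 48 h (2.78 ± 0.03). PPP1R15A, which reverses the block of translation (1.98 ± 0.06), and STC2 (1.67 ± 0.04) were higher, SESN2 was lower (−1.03 ± 0.06) and ATF4 itself had −0.59. Of 23 chaperones and genes of the unfolded protein response in the endoplasmic reticulum, the sensor gene ERN1 was higher (1.44 ± 0.08), and CRELD2 (−1.53 ± 0.08) and SDF2L1 (−1.44 ± 0.09) were lower. These shares, 4.35% higher and 8.70% lower, were near those over all tested genes (5.34% and 6.85%). Of 23 NRF2 targets, 1 was higher and 1 was lower, with a median of −0.46, and the higher gene was OSGIN1 (1.68 ± 0.04), which restrains cell growth under oxidative stress. The share of NRF2 targets called was 4.35% in each direction, below the shares over all tested genes. With library size alone, 5 of the 23 were lower. Of 27 apoptosis genes, 2 were higher, 2 were lower and 23 did not pass, with a median of −0.03, so that the list was near the share of all tested genes in both directions. The higher genes were BIRC7 and MCL1 (1.27 ± 0.03), and the lower ones PMAIP1 (−1.92 ± 0.36) and FAS (−1.12 ± 0.11).

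Among 19 oxygen-dependent demethylases, 6 were higher and 1 was lower, with a median of 0.75. The histone demethylase genes KDM7A (2.92 ± 0.06) and KDM3A (1.95 ± 0.05) and the DNA demethylase gene TET1 (1.44 ± 0.06) led them, and KDM4A, with 48.5% of its exon bases in other genes, was lower (−1.08 ± 0.05). Of 23 collagen hydroxylases, lysyl oxidases and matrix genes, 4 were higher and 4 were lower. The enzymes LOXL3 (2.57 ± 0.13), LOX (73.3 to 79.0 and 416 to 428 CPM, 2.47 ± 0.03) and P4HA1 (1.52 ± 0.03), which crosslink or hydroxylate collagen, were higher. The structural chains COL4A1 (−2.31 ± 0.56), COL4A2 (−1.67 ± 0.45) and LAMA1 (−1.45 ± 0.40) were lower, and COL4A1 and COL4A2 belong to the 229 genes. LAMA1 was at only 0.33 to 0.62 CPM at 0 h and 0.17 to 0.21 CPM at 48 h. Of 24 genes of autophagy and mitophagy, 5 were higher and 1 was lower. The mitophagy receptor genes BNIP3 (103 to 110 and 343 to 347 CPM, 1.69 ± 0.03) and BNIP3L (1.46 ± 0.04) were higher. The lower gene was ULK2, which had 4, 8 and 4 counts at 48 h and lost its call without any 1 of 3 of the 6 libraries.

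How much of the change came after the first day was asked with the 24 h libraries in place of those at 0 h. From 24 to 48 h, 398 genes were higher (2.02% of those tested) and 719 were lower (3.64%). Without 24 h replicate 1, 597 were lower and 404 were higher, and with library size alone 1014 were lower and 285 higher. IER3 (2.48), IGFBP3 (2.14), SOCS3 (2.1), HAMP (2.09), PIM1 (2.07), GDF15 (2.03) and DUSP1 (1.83) rose further on the log2 scale. CDC6 (−1.57), E2F2 (−1.27), POLE2 (−1.53) and FAM111B (−2.17) fell further. BNIP3 (0.05), CA9 (0.43), PLIN2 (0.05), CP (−0.01), IGF2 (−0.23) and MT-CO3 (−0.30) did not pass. Against 0 h, the median of the HIF targets was 1.58 at 24 h and 1.82 at 48 h, that of DNA replication −0.50 and −1.19, and that of the mitochondrial genome −1.12 and −1.58. The 24 h and 48 h changes share the 0 h libraries.

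Whether the 48 h change was that of unedited HepG2 was tested as the difference between the libraries labelled APOA4-KO and those of HepG2. It was higher in APOA4-KO for 677 genes (3.43% of those tested) and lower for 787 (3.99%), and with library size alone for 464 and 1206. HIF targets had 9 of 30 members with a higher and 2 with a lower change in APOA4-KO, and the lower ones, PFKFB4 and PDK1, rose in both lines (1.55 and 1.30 in APOA4-KO, 2.86 and 2.37 in HepG2). Of the immediate early genes 18 of 26 had a higher change, of gluconeogenesis 4 of 15, of DNA replication 34 of 42 a lower one and of the mitochondrial genome 7 of 13. Glycolysis had 1 higher (HK1, 1.35 in APOA4-KO and −0.34 in HepG2) and 2 lower of 25, and mitosis 0 higher and 2 lower of 36. Of the genes higher in APOA4-KO at 48 h, 77.9% had a positive log2 fold change in HepG2 (46.7% of all tested genes), with a median of 0.37 there against 1.47 in APOA4-KO. Of the lower genes, 75.1% had a negative one (52.9% of all tested genes), with medians of −0.28 and −1.5. The members were called in APOA4-KO, so the smaller medians in HepG2 are a description.

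**Figure D3:**
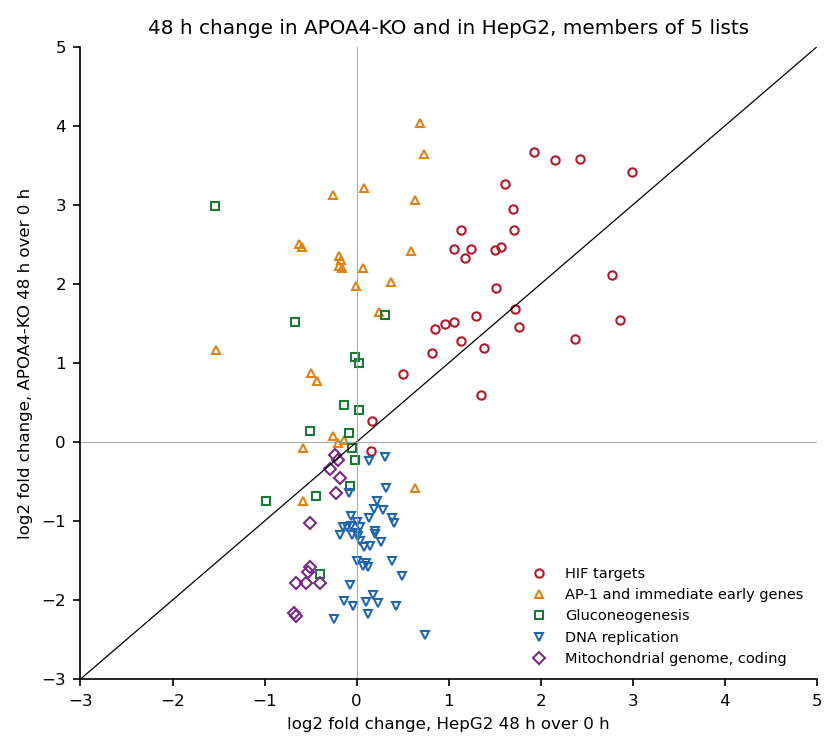
Log2 fold change of HepG2 48 h over 0 h (x axis) against that of APOA4-KO (y axis) for the members of 5 lists, with the line of equal change, and without EGR2, whose fold change has no firm size. HIF targets lie mostly at or above the line, immediate early genes near 0 in HepG2 and mostly above 1 in APOA4-KO, and DNA replication genes near 0 in HepG2 and below 0 in APOA4-KO.

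The genes with the largest differences by the rule were, on the higher side, PCK1, SOCS3, IGFBP3, ROBO4 and RBM24. ROBO4, a guidance receptor of vessel cells, was at 5.00 to 6.87 CPM at 0 h, 4.47 to 5.05 CPM at 24 h and 37.7 to 38.3 CPM at 48 h in APOA4-KO and at 0.47 to 1.14 CPM in HepG2 at 48 h. RBM24, an RNA-binding protein gene, was at 1.62 to 2.30 CPM at 0 h and 19.1 to 21.5 CPM at 48 h, and at 2.62 to 3.13 CPM in HepG2 at 48 h. On the lower side they were SLX1B-SULT1A4, FAM111B, PIK3R3, CDC6 and E2F7. SLX1B-SULT1A4, a readthrough gene with 80.2% of its exon bases in other genes, had 2.74, 32.3 and 5.19 CPM at 0 h and is uncertain. Both lines were at like levels of CDC6 and E2F7 at 0 h, and at 48 h E2F7 was at 2.04 to 2.58 CPM in APOA4-KO and at 11.7 to 13.4 CPM in HepG2.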

How the data were processed

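Poly(A) RNA was sequenced on strand-marked libraries. The authors trimmed reads with fastp 0.23.1, aligned them with HISAT2 2.1.0 to GRCh38 (Ensembl release 109) and deposited gene counts and FPKM. Their methods name featureCounts (subread 2.0.2) for counting, the submitters' processing notes name StringTie, and the strand setting is not given in the sources used here. Counts of 4 were 2.66 to 3.12 times as frequent as those of 3 or 5, so that a count need not be 1 read pair.

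Counts were filtered with filterByExpr, scaled by TMM and fitted over all 18 libraries with edgeR 4.0.16 (glmQLFTest, 1 coefficient per line and time, R 4.3.3). DESeq2 1.42.0 and limma 3.58.1 on the deposited FPKM served as alternatives. SE is the absolute log2 fold change over the root of F. Between replicates of the 6 libraries the chi-square per gene was 10.9 to 16.4, and 2.72 to 4.09 when divided by 4 for the excess of counts of 4, against 1 for counting noise alone. GENCODE release 29 (GRCh38) gave coordinates and shared exon bases for 58254 IDs. Shares not stated beside the gene included 37.1% for CCNE2, 35.9% for NDUFB2, 34.1% for HIGD1A, 32.3% for AHR, 30.6% for EGLN2 and 28.6% for ANGPTL8.

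Named genes were, by rule, the 10 largest changes in each direction (mean of 500 counts in the higher group, 10 counts in each library, no overlap), the 3 largest in each direction of each list, members that did not pass, the 5 largest differences between the lines in each direction, and APOA4, EPO, HIF1A, PCK1, G6PC1, PPARA and PPARG. The members and lists were chosen with earlier results of these data known. CA9, VEGFA, BHLHE40, ANKRD37, EGLN1, HK1, PDK1, PFKFB4, MCM7, PLIN2, DUSP1, HSPA1A, GPD1, VIM, ITGA5 and EPAS1 were named after their values were seen. Some genes that the rule names are not reported here.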

Additional observations from a re-analysis of the deposited data

Results flagged for a closer look

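Among the 161 genes named in the text with a test, 39 had a 48 h change that was higher in APOA4-KO than in unedited HepG2 and 33 one that was lower, each past the test of the difference itself (log2 difference of at least 1, adjusted p under 0.05, edgeR quasi-likelihood test with Benjamini-Hochberg adjustment). EGR2 passed too, but with 0 counts in every APOA4-KO library at 0 h its difference has no firm size. The difference in log2 fold change was PCK1 (4.53), SOCS3 (4.11), IGFBP3 (4.09), ROBO4 (3.55), RBM24 (3.52), PIM1 (3.4), FOS (3.35), DUSP1 (3.14), GDF15 (3.0) and IER3 (2.91). Further positive differences were BIRC7 (2.87), HAMP (2.77), PTAFR (2.69), NDUFA4L2 (2.58), HIF3A (2.54), AHR (2.21), G6PC1 (2.19), KDM7A (2.1) and PPP1R15A (1.83). Positive differences were also given by HK1 (1.69), ANKRD37 (1.65), TBX3 (1.57), ERN1 (1.55), VEGFA (1.54), EGLN3 (1.4), PPARG (1.39), LOXL3 (1.34), OSGIN1 (1.34), FOXO1 (1.3), ANGPTL8 (1.29), BHLHE40 (1.25) and AGPAT2 (1.22). Smaller positive differences were those of LPIN2 (1.21), HILPDA (1.16), ADM (1.15), MCL1 (1.14), EPAS1 (1.12), PPARGC1A (1.11) and CD68 (1.07).

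The negative differences were FADS2 (−1.03), CCND3 (−1.04), FAS (−1.04), APOA4 (−1.07), PDK1 (−1.07), MCM7 (−1.09), NDUFB2 (−1.11), MT-ND3 (−1.13), MTERF2 (−1.13), CYP8B1 (−1.19), CDKN2C (−1.3), PFKFB4 (−1.32) and CRELD2 (−1.38). Further negative differences were SDF2L1 (−1.39), MT-CYB (−1.48), MT-CO3 (−1.55), AKR1D1 (−1.58), HSPA1A (−1.58), GPD1 (−1.71), ITGA5 (−1.84), PMAIP1 (−1.9), E2F2 (−1.99) and PLIN1 (−2.04). Negative differences were also given by GSTA1 (−2.18), POLE2 (−2.3), IFI27 (−2.33), E2F7 (−2.47), CDC6 (−2.51), PIK3R3 (−2.6), GSTA2 (−3.02), CCNE2 (−3.18), FAM111B (−3.32) and SLX1B-SULT1A4 (−3.74). ITGA5, IFI27 and SLX1B-SULT1A4 belong to the 229 genes that were high in replicate 1 at 24 h, and the last has 80.2% of its exon bases in other genes. No group had more than 3 libraries, so single libraries were not tested as outliers.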

How the results depend on the processing

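Of the 2407 changed genes, 2360 were called in the same direction with DESeq2 size factors, 2143 with library size alone, 2338 by the DESeq2 Wald test and 2228 with the replicate block, and 0 in the opposite direction. The replicate numbers did not pair the libraries (correlations of deviations −0.048, −0.067 and −0.006 for the same number), and the replicate block gave 1003 higher and 1285 lower genes. Library size alone gave 464 genes with a higher and 1206 with a lower 48 h change in APOA4-KO than in HepG2, and 285 higher and 1014 lower genes from 24 to 48 h. limma on log2(FPKM + 1) gave 670 changed genes from 0 to 48 h (328 higher, 342 lower), 138 from 24 to 48 h (81 higher, 57 lower) and 426 differences between the lines (179 higher, 247 lower). limma on log2(FPKM + 0.1) gave 1282 (490 higher, 792 lower), 414 (153 higher, 261 lower) and 916 (292 higher). The FPKM fits held 1310 of the 2407 genes. Without the fold limit the counts were 9843 (4727 higher, 5116 lower), 8160 (4320 higher, 3840 lower) and 7178 (3665 higher, 3513 lower).

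Leaving out 1 library at a time gave 2249 to 2415 changed genes from 0 to 48 h (1017 to 1095 higher, 1174 to 1329 lower), 1001 to 1155 from 24 to 48 h (373 to 404 higher, 597 to 772 lower) and 1381 to 1501 differences (654 to 689 higher, 714 to 818 lower). COL1A1 lost its call without any 1 of 3 libraries and SESN2 without any 1 of 2, MRPL49 and MTERF2 did so without 0 h replicate 1, and SESN2 also when only the compared groups were fitted. Under limma on log2(FPKM + 1), 18 of 130 named genes lost their call. INSIG1, COX4I2 and ULK2 lost theirs with the replicate block. After seeing the data, counts divided by 4 were fitted and gave 1008 higher and 1268 lower genes, and leaving the 229 genes out of the calls, with no new fit, gave 1054 and 1221. The causes were not tested.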

Other observations

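By annotated class, 5.73% of 14766 tested protein-coding genes were higher in APOA4-KO at 48 h and 6.75% were lower. Of 1024 long intergenic RNA genes, 5.18% were higher and 8.89% lower, and of 1229 antisense genes 3.99% and 7.98%. The antisense values depend on a strand setting that is not given in the sources used here.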
